A study of Mus musculus with 12 samples.

Results

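The genes described here carry salt and water across the colon lining. They are the 3 subunits of the epithelial sodium channel (Scnn1a, Scnn1b and Scnn1g), the sodium-proton exchangers Slc9a3 and Slc9a2, the chloride-bicarbonate exchanger Slc26a3, carbonic anhydrase Car4, the water channel Aqp8, and Cftr and Slc12a2, which together secrete chloride. They were listed by symbol for their function, and all 10 were found among the 30263 genes of each colon table.

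The surface cells of the colon take up sodium in 2 ways. Slc9a3 or Slc9a2 works side by side with Slc26a3 and exchanges sodium chloride for acid and bicarbonate, which carbonic anhydrases supply. In the distal colon the sodium channel, which is controlled by the hormone aldosterone, adds a route that runs without exchange, and water follows the salt. Crypt cells work the other way: Slc12a2 loads chloride from the blood side and Cftr releases it into the lumen, which pulls water out.

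RNA sequencing counts came from total colons of C57BL/6 mice, 3 libraries labelled WT and 3 labelled S1PR4 KO (a loss of the sphingosine 1-phosphate receptor S1PR4). All 6 colons came from the AOM/DSS model, which combines the carcinogen azoxymethane (AOM, 10 mg/kg, injected) with dextran sulfate sodium (DSS, 0.5% in the drinking water), an agent that injures the epithelium. DSS was given on days 1 to 6 and 21 to 27 in combined cycles and on days 47 to 52 as a further cycle, and colons were taken at day 84. The design compares diseased colons by the label of their genotype. No untreated colon was used here, so every level is one under AOM/DSS. The labels give neither the age of the mice nor the construction of the KO allele. They do not tie replicates to separate animals, so p-values measure only the spread between these libraries. CD8+ T cell tables of the same series listed 357 genes, of which 0 were members, and were not analysed here.

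Total counts ran from 7304082 to 8652561 per library. The targeted gene separated the labels, but against the direction of a loss. S1pr4 stood at 3.13 to 7.22 CPM (counts scaled to the library total) in libraries labelled WT and at 16.1 to 21.4 CPM in those labelled KO. Its log2 difference was 1.78 ± 0.34 (SE; edgeR adjusted p = 0.829, DESeq2 adjusted p = 0.00578). Each direction below thus rests on the labels. WT replicate 1 and KO replicates 2 and 3 held Xist, the X-inactivation RNA of female cells, at 515 to 591 CPM. The others held Xist at 0.894 to 6.75 CPM and had 63.3 to 81.1 CPM of Ddx3y, which lies on the Y chromosome. Libraries with Xist thus made up 1 of 3 in WT and 2 of 3 in KO. Each label therefore held more than 1 animal, although libraries of the same kind are not shown to be separate animals, and differences are also given within each kind of library. WT replicate 1 stood apart with 698.4 CPM summed over the squamous epithelium markers that passed the filter on low counts (8 of 11). KO replicates 2 and 3 held 109.4 and 87.42 CPM, and the remaining libraries 30.13 to 41.59 CPM, so the 3 highest sums were in the libraries with Xist. Krt1 and Trp63 of that list were at 0 in at least 1 library. All 12 general epithelium markers were measured, with sums of 2240 to 2664 CPM in WT and 2433 to 2558 CPM in KO, so the material held colon epithelium under both labels.

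Of the 10 transport genes, 7 had a lower mean in libraries labelled KO, where 51.0% of all 17195 tested genes did, and the gamma subunit of the sodium channel showed the largest difference. Scnn1g was 4.23-fold lower in KO, and every KO library lay below every WT library. The absorptive genes Scnn1a, Slc9a2, Slc26a3, Car4 and Aqp8 had means 1.12-fold to 1.24-fold lower. Slc9a3, also absorptive, had the higher mean in KO, 282.1 CPM against 252 CPM in WT, where WT replicate 1 stood at 59.5 CPM. Without KO replicate 3 the log2 differences of Slc9a2, Slc26a3, Car4 and Aqp8 were -0.08 to -0.04, and that of Scnn1a was -0.16. Slc12a2 had a mean of 343.0 CPM in KO against 303.5 CPM in WT. None of these differences passed edgeR's quasi-likelihood test after adjustment over all genes. The test called 0 of the 10 members and 0 of 17195 genes (0%), and at an unadjusted p under 0.05 it held 1 member, Scnn1g, and 5.06% of all genes. DESeq2 called 18 genes, among them S1pr4 with its higher mean in KO, and limma-voom called 0. Both called 0 members.

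The median log2 difference of the members was -0.24, against -0.0045 over all tested genes. Leaving out KO replicate 3 brought it to -0.062, and leaving out KO replicate 1 to -0.37. It was -0.079 within the Xist libraries, -0.091 within the Y-linked libraries and -0.12 with the kind of library as a covariate. Groups did not overlap for 1 member (Scnn1g), against 9.58% of all genes in either direction and 5.04% of all genes on the lower side. In whole tissue, fewer colonocytes and less RNA per colonocyte cannot be told apart.

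**Figure D1:**
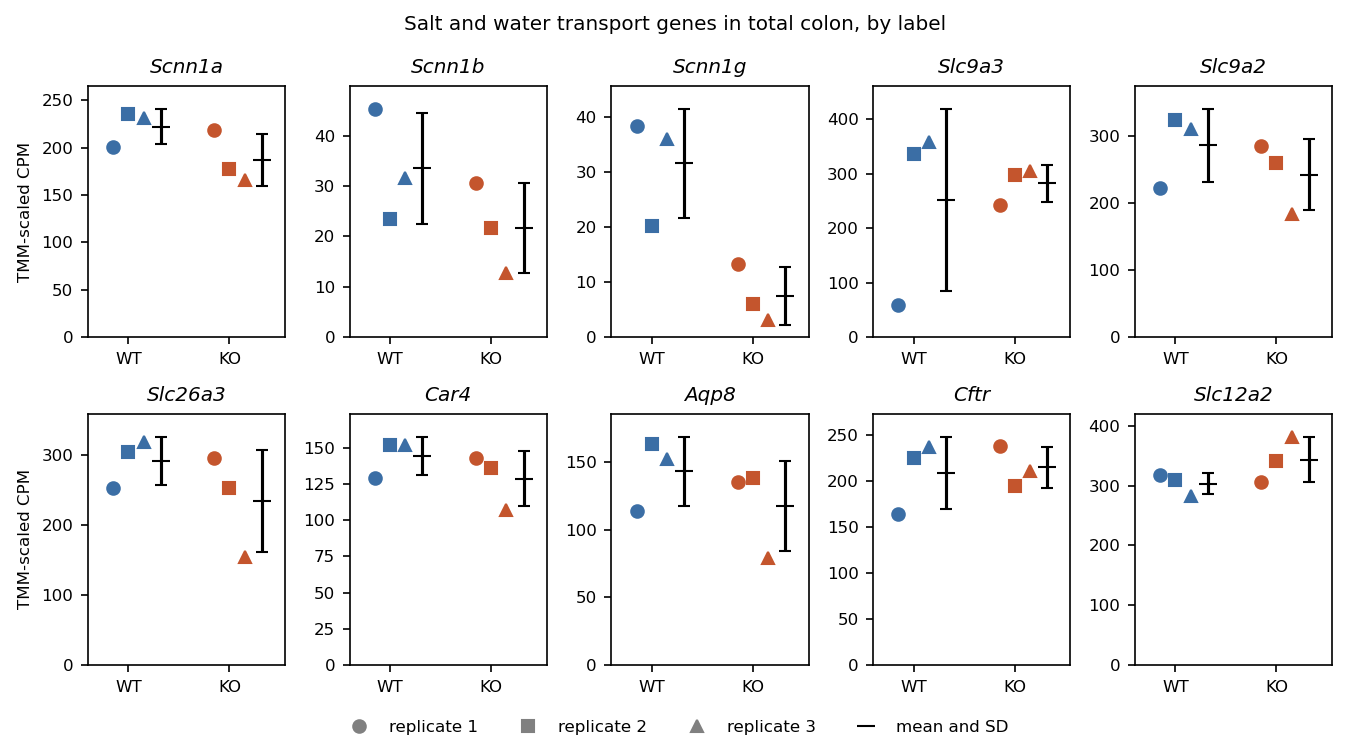
TMM-scaled CPM (vertical axes, from 0) of the 10 transport genes in the 3 libraries labelled WT (blue) and the 3 labelled KO (red), marker shape by replicate number, with the mean and SD (n = 3) in black. Scnn1g is the gene whose KO points all lie below its WT points, and WT replicate 1 lies far below the other libraries for Slc9a3.

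The sodium channel subunits are encoded at 2 places in the genome. Scnn1a (ENSMUSG00000030340) lies on GRCm38 chromosome 6, 125320659 to 125344943. Scnn1g (ENSMUSG00000000216, chromosome 7, 121734479 to 121768475) and Scnn1b (ENSMUSG00000030873, chromosome 7, 121865038 to 121918514) are neighbours on the plus strand, with 96.6 kb between them, and their exons overlap no other annotated gene. RefSeq promoter sequences on GRCm38.p6 were matched for 7 of the 10 members. Those of the neighbouring pair and of 2 exchange and water genes that were lowest in KO replicate 3 are shown, each from 160 to 11 bases before the RefSeq start site, on the plus strand. The first pair is shown because the neighbours differed in their values, the second because these genes carry the exchange and water routes. Capitals mark matches on either strand to GGGCGG (the GC box) or TATAAA (the TATA box).
Scnn1g: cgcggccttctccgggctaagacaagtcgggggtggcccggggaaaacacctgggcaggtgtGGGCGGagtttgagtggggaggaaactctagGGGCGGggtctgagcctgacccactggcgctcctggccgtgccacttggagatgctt
Scnn1b: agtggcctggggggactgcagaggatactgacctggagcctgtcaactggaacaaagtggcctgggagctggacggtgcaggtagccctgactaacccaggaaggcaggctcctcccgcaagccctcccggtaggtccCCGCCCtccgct
Slc26a3: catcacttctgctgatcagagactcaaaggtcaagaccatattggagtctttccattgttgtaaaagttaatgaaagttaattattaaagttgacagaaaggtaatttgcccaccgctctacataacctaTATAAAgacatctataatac
Aqp8: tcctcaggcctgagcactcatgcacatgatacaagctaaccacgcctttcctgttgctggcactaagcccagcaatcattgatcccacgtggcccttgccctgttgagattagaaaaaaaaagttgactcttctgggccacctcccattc
The windows are chr7:121734319-121734468 for Scnn1g, chr7:121864878-121865027 for Scnn1b, chr12:31438059-31438208 for Slc26a3 and chr7:123462134-123462283 for Aqp8. None of these bases lies in an annotated exon, although the Slc26a3 window lies inside the longer gene model of GENCODE, which starts upstream.

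The neighbouring channel genes both had GC-rich windows, with 66.0% G and C in Scnn1g and 65.3% in Scnn1b, and so had Cftr (72.0%) and Slc9a3 (71.3%). Car4 had 58.0%, Aqp8 50.7% and Slc26a3 34.0%. GC boxes began at -98 and -67 in Scnn1g and at -22 in Scnn1b, counting the base before the start as -1. A TATA box began at -30 in Slc26a3. Over the longer window of 240 bases, 4 of the 7 matched members held a GC box (31.3% of all 32851 promoter windows did) and 1 held a TATA box (12.1% did). The hexamer AGAACA, one arm of the palindrome that corticosteroid receptors bind, was in 0 of the 7 and in 15.5% of all windows. These are matches of letters and not measured sites.

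Scnn1g, the gamma subunit, stood at 38.4, 20.2 and 36.0 CPM in WT replicates 1 to 3 and at 13.3, 5.95 and 3.13 CPM in KO replicates 1 to 3. The highest KO library was below the lowest WT library. Mean CPM was 31.55 ± 9.91 for WT (SD, n = 3) and 7.454 ± 5.24 for KO, on raw counts of 23 to 325. The log2 difference was -2.08 ± 0.55 (SE; 95% interval -3.41 to -0.74; edgeR adjusted p = 0.829). Its unadjusted p in edgeR's quasi-likelihood test, 0.00861, ranked 82 among all genes. DESeq2 gave an adjusted p of 0.101 and limma-voom 0.131.

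Scnn1g kept its direction within each kind of library. KO minus WT was -3.07 (log2) among those with Xist and -1.08 among those with Y-linked reads, each resting on 1 library of one label. The 2 effects differed by -1.99 ± 0.70 (SE, log2; edgeR adjusted p = 0.236). Leaving out any single library gave -2.79 to -1.71, and leaving out WT replicate 1 and KO replicate 3 together gave -1.54. Per count of the epithelium list it was -2.11. Of the 8 tested posterior HOX genes, which mark position along the gut, 6 had a lower mean in KO (51.0% of all genes did). Their median was -0.55, 0 passed edgeR's test, and the groups overlapped for all 8. Of the 8 tested anterior and middle HOX genes, 2 had a lower and 6 a higher mean in KO (median 0.047). Hoxd13 stood at 153, 14.2 and 71.9 CPM in WT and at 71.2, 8.73 and 42.1 CPM in KO, and Hoxb13 differed by -0.13 ± 0.08 (SE, log2). Hoxc10 was at 0 in 5 of 6 libraries. The part of these genes in the Scnn1g and Scnn1b values was not tested.

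Scnn1b, the beta subunit, followed the gamma subunit only in part. Its values were 45.3, 23.5 and 31.6 CPM in WT and 30.6, 21.7 and 12.7 CPM in KO. WT replicate 1 was the highest and KO replicate 3 the lowest library, and the groups overlapped. The log2 difference was -0.63 ± 0.38 (SE; 95% interval -1.55 to 0.29; edgeR adjusted p = 0.829). Xist libraries gave -1.40 and Y-linked libraries 0.15. With WT replicate 1 and KO replicate 3 both left out it was -0.069, and with either of them left out -0.34 and -0.35. Leaving out KO replicate 1 gave -0.97.

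Scnn1a, the alpha subunit, which the channel needs to conduct, was the most abundant of the 3. It stood at 201, 235 and 231 CPM in WT and at 218, 177 and 166 CPM in KO. KO replicates 2 and 3 lay below all WT libraries, while KO replicate 1 lay among them. KO minus WT was -0.25 ± 0.12 on the log2 scale (SE; 95% interval -0.54 to 0.05; edgeR adjusted p = 0.829). Leaving out KO replicate 1 gave -0.38, and leaving out KO replicate 3 gave -0.16. Xist libraries gave -0.23, Y-linked libraries -0.093 and the covariate fit -0.16.

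Per length, the balance between the subunits differed more than the level of the alpha subunit did. Scnn1a averaged 53.7 ± 4.52 CPM per exon kilobase (SD, n = 3) in WT, Scnn1b 12.7 ± 4.18 and Scnn1g 10.5 ± 3.31. In KO the same levels were 45.3 ± 6.66, 8.23 ± 3.41 and 2.49 ± 1.75 (SD, n = 3). The ratio of Scnn1g to Scnn1b was 0.747, 0.755 and 1.00 in the WT libraries and 0.381, 0.242 and 0.218 in the KO libraries. Every KO ratio was below every WT ratio. The ratio of Scnn1b to Scnn1a overlapped between the labels, at 0.157 to 0.354 in WT and 0.120 to 0.220 in KO. These ratios were described after the values of the single genes had been seen and were not tested. Scnn1a averaged 0.386 counts per exon base, above the level of 0.3 set below to mark possible compression of differences. Scnn1b and Scnn1g, at 0.083 and 0.052, were under it. The part of this in the smaller Scnn1a difference and in the ratios to Scnn1a was not tested.

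**Figure D2:**
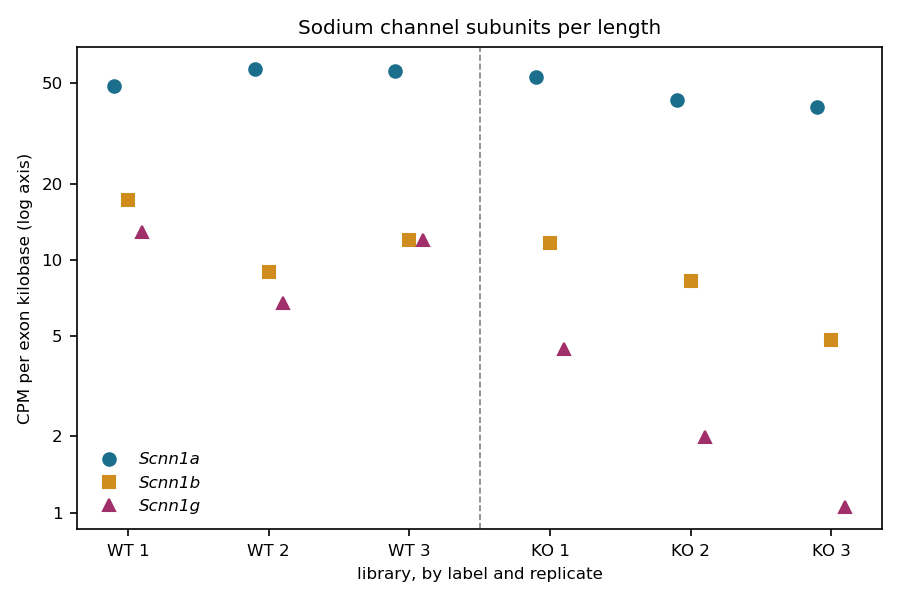
CPM per exon kilobase (log axis) of the 3 sodium channel subunits in each colon library, with labelled WT left and labelled KO right of the dashed line. Scnn1g lies close to Scnn1b in the WT libraries, at 6.75 to 12.9, and well below it in the KO libraries, at 1.05 to 4.44.

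The exchangers, Car4 and Aqp8 lie on 5 chromosomes of GRCm38, all on the plus strand. Slc9a3 (ENSMUSG00000036123) is on chromosome 13, 74121457 to 74169442, and Slc9a2 (ENSMUSG00000026062) on chromosome 1, 40680574 to 40769273. Slc26a3 (ENSMUSG00000001225) is on chromosome 12, 31390871 to 31473917, Car4 (ENSMUSG00000000805) on chromosome 11, 84957786 to 84966044, and Aqp8 (ENSMUSG00000030762) on chromosome 7, 123462291 to 123468004.

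Slc9a3 (NHE3), the main sodium-proton exchanger of absorptive cells, differed by library more than by label. It stood at 59.5, 337 and 359 CPM in WT and at 243, 298 and 305 CPM in KO. WT replicate 1 was far below the other 5 libraries, which lay close together, and the groups overlapped. The log2 difference was 0.16 ± 0.60 (SE; 95% interval -1.30 to 1.62; edgeR adjusted p = 0.961) and -0.29 ± 0.12 (SE) without WT replicate 1, an opposite sign. Among the Xist libraries, where WT replicate 1 is the 1 WT library, KO minus WT was 2.34, and among the Y-linked libraries -0.52. The first value passed the threshold (edgeR adjusted p = 0.0474), but its WT arm is that lone library, which is assumed to vary like the other groups, so the p carries no replicate check of it. The effects in the 2 kinds of library differed by 2.86 ± 0.13 (SE, log2; edgeR adjusted p = 0.102).

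Other genes also stood apart in WT replicate 1. The water channel Aqp4 held 147 CPM there and 336 to 368 CPM in the other libraries. Aqp3, another water channel, held 236 raw counts there and 3 to 5 elsewhere, and the keratin Krt5 1054 against 1 to 3, both chosen after their values were seen. The posterior HOX list summed to 649.8 CPM there and to 377.9 to 457.0 CPM in the other libraries, with Hoxd12 at 54.8 CPM against 0.661 to 9.45 CPM. The part of these genes in the Slc9a3 value was not tested.

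Slc9a2 (NHE2), the second apical exchanger, stood at 223, 324 and 310 CPM in WT and at 285, 259 and 184 CPM in KO. KO replicate 3 was the lowest library and WT replicate 1 the next. This gave a log2 difference of -0.24 ± 0.21 (SE; 95% interval -0.74 to 0.27; edgeR adjusted p = 0.858), with -0.07 when KO replicate 3 was left out and -0.38 and -0.37 when WT replicate 1 or KO replicate 1 was. Leaving out WT replicate 2 gave -0.14. Xist libraries gave -0.013 and Y-linked libraries -0.16.

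Slc26a3, the exchanger called DRA ("down-regulated in adenoma") and the cause of congenital chloride diarrhoea when lost, stood at 253, 304 and 318 CPM in WT. In KO it stood at 295, 253 and 154 CPM. KO replicate 3 was the lowest, and the other KO libraries lay within the WT range. The log2 difference was -0.31 ± 0.24 (SE; 95% interval -0.90 to 0.27; edgeR adjusted p = 0.845), with -0.08 when KO replicate 3 was left out and -0.52 when KO replicate 1 was. Xist libraries gave -0.31 and Y-linked libraries -0.074.

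Car4, a carbonic anhydrase anchored on the outer face of the apical membrane, stood at 129, 152 and 152 CPM in WT and at 143, 136 and 107 CPM in KO. Again KO replicate 3 was the lowest library and the groups overlapped. KO minus WT was -0.17 ± 0.13 on the log2 scale (SE; 95% interval -0.48 to 0.15; edgeR adjusted p = 0.849), with -0.04 when KO replicate 3 was left out and -0.25 when KO replicate 1 was. Xist libraries gave -0.087 and Y-linked libraries -0.088.

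Aqp8, a water channel of surface colonocytes, stood at 114, 163 and 152 CPM in WT and at 135, 138 and 78.7 CPM in KO. Only KO replicate 3 lay below the WT range. KO minus WT was -0.28 ± 0.25 on the log2 scale (SE; 95% interval -0.88 to 0.31; edgeR adjusted p = 0.857), and -0.06 without KO replicate 3. Leaving out WT replicate 2 gave -0.18. Xist libraries gave -0.072 and Y-linked libraries -0.22.

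The secretory pair did not share the lower means. The Cftr gene (ENSMUSG00000041301) lies on chromosome 6, 18170687 to 18322768, and Slc12a2 (ENSMUSG00000024597) on chromosome 18, 57878678 to 57946821. Cftr, the chloride channel mutated in cystic fibrosis, stood at 164, 225 and 237 CPM in WT and at 238, 194 and 211 CPM in KO. The groups overlapped throughout, with a log2 difference of 0.04 ± 0.16 (SE; 95% interval -0.34 to 0.42; edgeR adjusted p = 0.962), and the sign turned when WT replicate 1 (-0.096) or KO replicate 1 (-0.044) was left out. Of its 7765 exon bases, 129 are shared with the opposite-strand gene Gm15592, whose reads cannot be told apart without strand.

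Slc12a2 (NKCC1), the basolateral sodium-potassium-chloride cotransporter, stood at 317, 310 and 283 CPM in WT and at 306, 341 and 382 CPM in KO. KO replicate 3 was the highest library, the opposite of its place for 7 other members. This gave a log2 difference of 0.18 ± 0.10 (SE; 95% interval -0.06 to 0.41; edgeR adjusted p = 0.829), and of 0.099 when KO replicate 3 was left out. Xist libraries gave 0.19 and Y-linked libraries 0.046. Its RNA ratio to Slc26a3 per length was 0.732, 0.595 and 0.521 in WT and 0.605, 0.784 and 1.45 in KO. Whether this ratio passes 1 depends on the exon lengths used. By CPM, Slc12a2 was above Slc26a3 in every library but WT replicate 3 (283 against 318 CPM).

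Per length, by the mean over all 6 libraries, the 10 members ran in the order Aqp8, Car4, Scnn1a, Slc9a3, Slc26a3, Slc9a2, Slc12a2, Cftr, Scnn1b and Scnn1g. In KO alone Slc9a3 (51.2) stood above Scnn1a (45.3), and in WT alone Slc9a3 and Slc26a3 both stood at 45.8. Aqp8 averaged 90.4 ± 16.3 CPM per exon kilobase in WT and 74.2 ± 21.1 in KO (SD, n = 3). Cftr averaged 26.9 ± 5.07 and 27.6 ± 2.83 (SD, n = 3). Neighbours in this order overlapped over the 6 libraries, except that every Cftr value (21.1 to 30.6) was above every Scnn1b value (4.81 to 17.2).

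**Figure D3:**
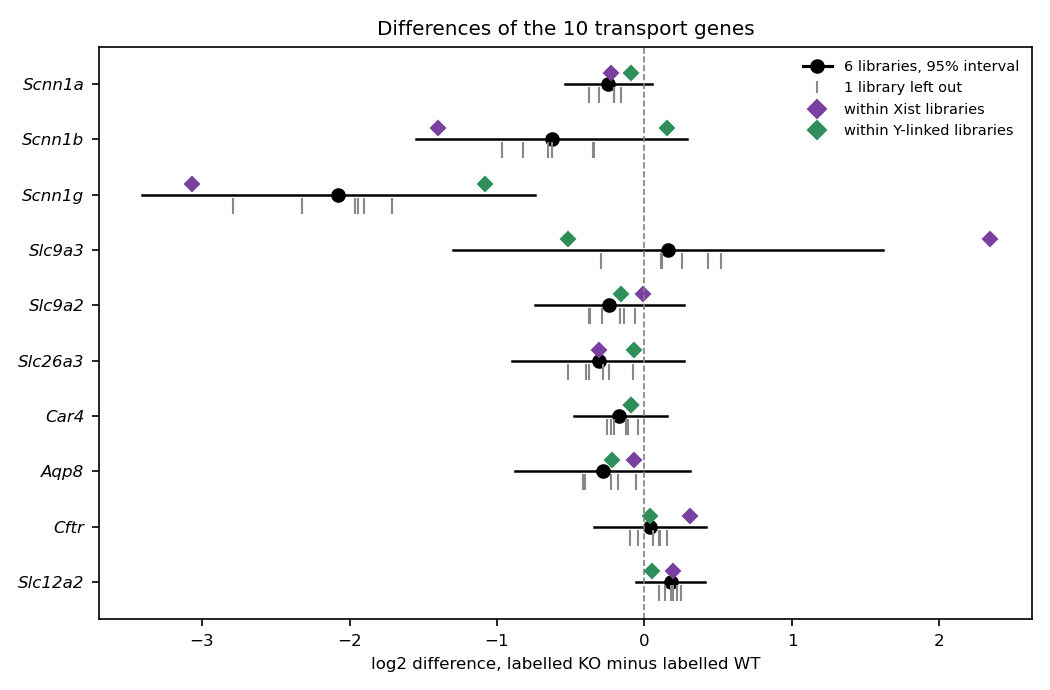
Log2 difference (horizontal axis, labelled KO minus labelled WT) of each transport gene, as the value from all 6 libraries with its 95% interval (black), the 6 values with a library left out (grey ticks) and the values within the Xist libraries (purple) and the Y-linked libraries (green, which covers purple for Car4). The Scnn1g interval, -3.41 to -0.74, is the 1 that does not reach 0, before any adjustment over genes.

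KO replicate 3 was the lowest library for 7 of the 10 members: Scnn1a, Scnn1b, Scnn1g, Slc9a2, Slc26a3, Car4 and Aqp8. In that library the 11 stem cell and WNT target genes summed to 2091 CPM and the 10 proliferation genes to 1057 CPM, the highest of the 6. KO replicate 2 held 1527 and 1002 CPM, and the 4 other libraries 771.3 to 1041 and 756.9 to 901.7 CPM. By label, the proliferation sums did not overlap, at 756.9 to 849.7 CPM in WT and 901.7 to 1057 CPM in KO. All 10 proliferation genes had a higher mean in KO, with 0 past edgeR's test, where 51.0% of all genes had a lower mean. The stem cell and WNT sums overlapped, at 771.3 to 1041 CPM in WT and 815.1 to 2091 CPM in KO. The 14 other absorptive colonocyte markers summed to 2493 CPM in KO replicate 3 and to 2662 to 3147 CPM in the others, while the 9 goblet cell markers, at 2373 CPM, lay within the range of 1903 to 2383 CPM. No marker of these 4 lists was at 0 in any library. The part of these genes in the member values was not tested.

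Of other cell types, all 10 smooth muscle markers had a lower mean in KO (51.0% of all genes did), with sums of 1971 to 2627 CPM in WT and 1241 to 2333 CPM in KO. So had all 10 enteric neuron and glia markers, at 199.0 to 296.2 CPM in WT and 78.98 to 292.7 CPM in KO. For both lists KO replicate 1 lay within the WT range (2333 and 292.7 CPM). KO replicates 2 and 3 lay below it, at 1880 and 1241 CPM for muscle and 113 and 78.98 CPM for neurons and glia. The 6 fibroblast and 6 endothelium markers also all had lower means in KO. All 8 macrophage and all 5 tested adipocyte markers had higher means. The 11 tested neutrophil and cytokine genes had higher means, at 22.13 to 99.72 CPM in WT and 25.92 to 265.4 CPM in KO, with KO replicates 2 and 3 the highest. The part of these cell types in the member values was not tested. On a scale per count of the epithelium list, 7 members had the lower mean in KO and the median of the members was -0.25. That list differed little between the labels (median log2 difference 0.02), so this scale could move the values little.

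**Figure D4:**
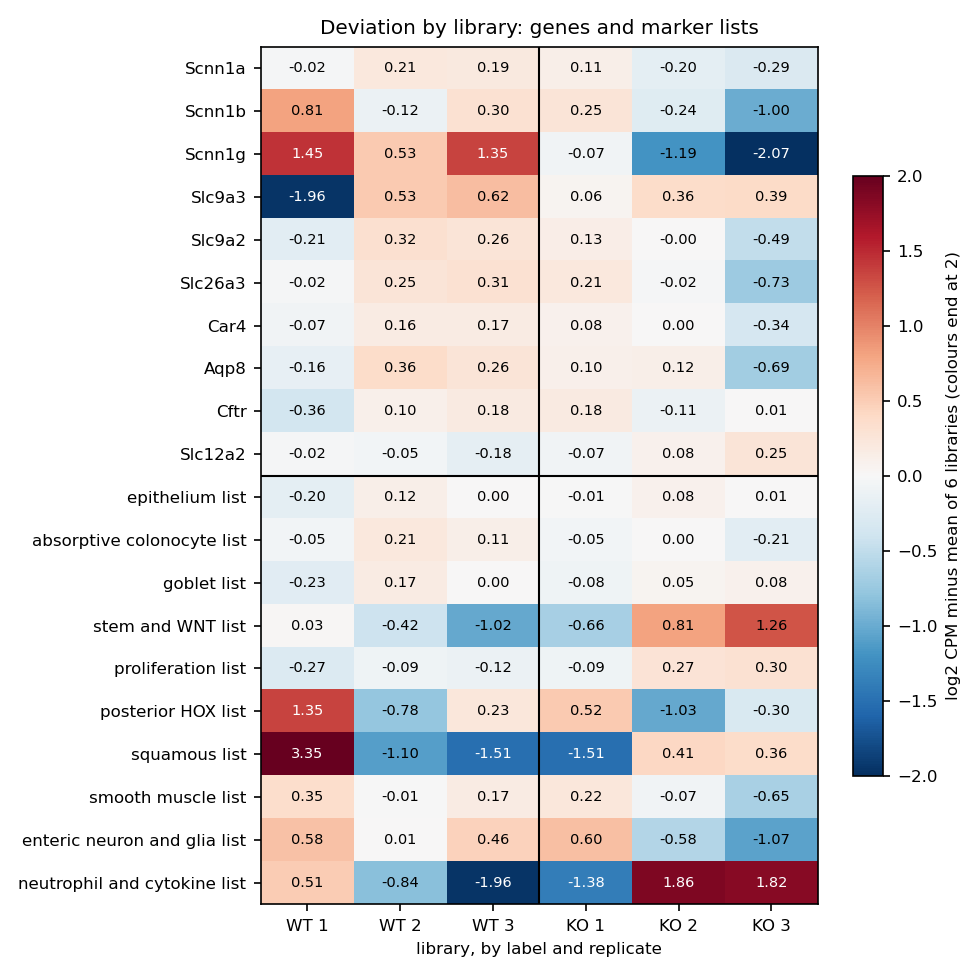
Log2 CPM minus the mean of the 6 libraries (colour and printed number) for the 10 transport genes (above the line) and the mean of 10 marker lists (below it), by library. KO replicate 3 is low for Scnn1g (-2.07), Slc26a3 (-0.73) and Aqp8 (-0.69) and high for the stem cell and WNT list (1.26), and WT replicate 1 is low for Slc9a3 (-1.96) and high for the squamous list (3.35).

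Counts per exon base differed widely between the members. No gene of any colon library exceeded 0.973 counts per exon base, and Aqp8, at 0.366 to 0.770, lay higher than 99.7% of tested genes. A mean above 0.3 counts per exon base was set to mark possible compression, in which differences come out smaller than they are. In all, 5 members averaged above it, namely Aqp8, Car4, Scnn1a, Slc9a3 and Slc26a3. Over the 1176 tested genes above 0.3 the median absolute log2 difference was 0.066. It was 0.13 over 13258 genes at or below 0.3 whose mean count was no lower than the lowest of the first set. The sets were not matched in counts beyond this lower bound. The part of counts per exon base in the differences of these 5 members was not tested. Scnn1g averaged 0.052 counts per exon base and Scnn1b 0.083, both below 0.3.

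Most regulators of the sodium channel also had lower means in KO. Of 19 listed genes, 13 had a lower mean (68.4%, against 51.0% of all genes) and 6 a higher mean, and 0 passed edgeR's test. An unadjusted p under 0.05 was found for 4 (21.1%, against 5.06% of all genes), all lower. The list was written with earlier results of these data known, so these shares are no test of the list. The counts also do not separate genes that raise channel activity from genes that lower it. The median was -0.12. Per1, a clock gene that aldosterone induces and that promotes Scnn1a expression, stood at 116, 65.1 and 91.4 CPM in WT and at 46.2, 54.2 and 47.9 CPM in KO. All KO values were below all WT values, with a log2 difference of -0.88 ± 0.21 (SE; edgeR adjusted p = 0.829). Nr3c2, the mineralocorticoid receptor that binds aldosterone, stood at 235, 235 and 240 CPM in WT and at 218, 150 and 153 CPM in KO.

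For Nr3c2 too the groups did not overlap, and the log2 difference was -0.45 ± 0.15 (SE; edgeR adjusted p = 0.829). Sgk1, the aldosterone-induced kinase that keeps the channel at the membrane, stood at 119, 142 and 155 CPM in WT and at 90.0, 120 and 78.3 CPM in KO. Its groups overlapped narrowly, with a log2 difference of -0.53 ± 0.18 (SE; edgeR adjusted p = 0.829). Wnk4, a kinase that regulates sodium transport, and Nedd4, a ubiquitin ligase, also had groups that did not overlap, with log2 differences of -0.29 ± 0.11 and 0.07 ± 0.06 (SE). DESeq2 gave adjusted p of 0.134, 0.649 and 0.618 for Per1, Nr3c2 and Sgk1. In the same order, log2 differences were -1.18, -0.64 and -0.26 within the Xist libraries. Within the Y-linked libraries they were -0.76, -0.12 and -0.72.

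The basolateral and apical lists had medians close to that of the regulators. Of 21 pumps and channels of the basolateral side and their partners, 15 had a lower mean and 6 a higher mean (median -0.11, 0 past the test). Atp12a, the colonic proton-potassium pump, which is an apical pump although it was listed here, stood at 289, 234 and 289 CPM in WT and at 231, 133 and 170 CPM in KO. Its groups did not overlap, by a narrow margin (log2 difference -0.60 ± 0.21, SE). The potassium channel Kcnk5 and the potassium-chloride cotransporter Slc12a7 differed by -0.42 ± 0.21 and -0.21 ± 0.09 (SE, log2).

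Among 20 tested apical exchangers, cotransporters and scaffolds, 14 had a lower mean (median -0.11, 0 past the test). The sodium-glucose cotransporter Slc5a1 differed by -0.23 ± 0.08, the scaffold Pdzd3 by -0.24 ± 0.10 and the sodium-phosphate cotransporter Slc34a2 by -0.93 ± 0.39 (SE, log2). Slc34a2 was 54.4 and 45.6 CPM in KO replicates 2 and 3, and 87.7 to 169 CPM in the other libraries. The largest difference of this list was that of Slc9a4, 1 of 6 with a higher mean, at 2.82 ± 1.40 (SE, log2). Slc9a4 stood at 4.02, 1.87 and 0.5 CPM in WT and at 0.255, 11.9 and 33.5 CPM in KO, with overlap. Of 18 secretion signalling genes, 16 were tested and 9 had a lower mean (median -0.02, 0 past the test). Ptger4, the prostaglandin receptor through which chloride secretion is stimulated, stood at 88.8, 101 and 95.4 CPM in WT and at 66.9, 84.4 and 73.1 CPM in KO, without overlap (log2 difference -0.35 ± 0.11, SE). Vipr1, the receptor of the secretagogue VIP, and the adenylyl cyclase Adcy6 differed by -0.21 ± 0.08 and -0.15 ± 0.07 (SE, log2). Prkg2, 1 of 7 with a higher mean, had the largest difference of the list, 1.93 ± 1.04 (SE, log2), and its groups overlapped.

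The other carbonic anhydrases and aquaporins had no common direction. Of 11 tested carbonic anhydrases, 4 had a lower and 7 a higher mean (median 0.034, 0 past the test). The cytosolic Car2 differed by -0.065 ± 0.067, Car8 by 0.51 ± 0.32 and the scarce Car14 by -1.23 ± 0.75 (SE, log2). Of 11 listed aquaporins 3 were tested, and Aqp1 of vessels, Aqp11 and Aqp4 differed by -0.22 ± 0.08, -0.18 ± 0.17 and 0.26 ± 0.33 (SE, log2). Over the 6 lists together, 57 of 90 tested genes had a lower mean in KO (63.3%, against 51.0% of all genes) and the groups did not overlap for 10 (11.1%, against 9.58%).

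**Figure D5:**
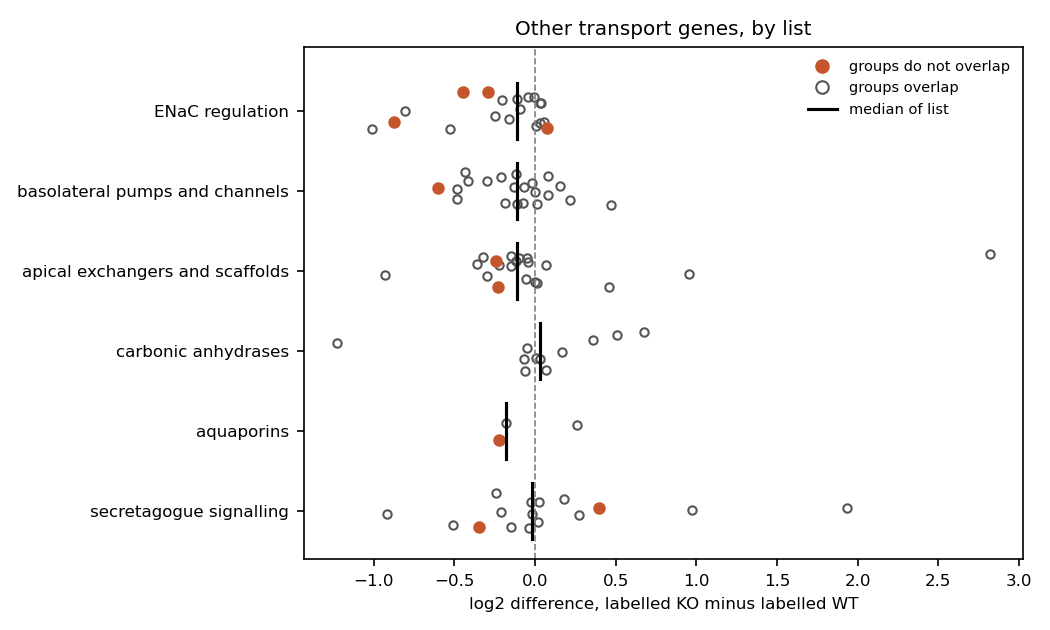
Log2 difference (horizontal axis, labelled KO minus labelled WT) of 90 other transport genes in 6 lists, each point a gene and each bar the median of a list; filled points are the 10 genes whose groups do not overlap. The list medians lie between -0.18 and 0.034. Of the 10 filled points, 4 are among the 19 regulators of the sodium channel, Nedd4 with the higher mean in KO. The groups did not overlap for 9.58% of all tested genes.

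The closest patterns over the 6 libraries were looked up for each member as the smallest root mean square difference of centred log2 CPM. For Scnn1b this was Adamtsl4, a secreted matrix protein, at 0.060, where the SD of Scnn1b over the 6 libraries was 0.56. For Scnn1g it was Rasl10b, a small GTPase, at 0.39 against an SD of 1.29. For Slc9a3 it was the noncoding RNA Plut, at 0.18 against an SD of 0.90. The nearest genes of the other 7 members, Trak1 for Scnn1a, Ces2c for Slc9a2, Btnl6 for Slc26a3, Il17rc for Car4, Acacb for Aqp8, Dcaf4 for Cftr and Ube2w for Slc12a2, lay at 0.019 to 0.065.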

How the data were processed

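Read counts per gene were deposited by the authors for 6 colon libraries, per the file headers, as whole numbers without normalisation. The submitters' processing notes name STAR, TopHat2, RSEM, HTSeq and DESeq2 with mm10 and GRCm38, without roles or versions. Strand setting and duplicate removal are not given in the sources used here. Gene IDs were matched to GENCODE vM21 (30212 IDs, 99.8%), which gave positions and exon lengths.

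The low-count filter was edgeR's filterByExpr and the scaling TMM. KO was set against WT in R 4.3.3 by the quasi-likelihood test of edgeR 4.0.16, with robust fitting, Benjamini-Hochberg adjustment over 17195 genes and a threshold of 0.05. SE is the log2 difference over the root of F. CPM are TMM-scaled; per-length values divide them by exon kilobases. Centred log2 CPM used a prior count of 2. No library was a copy of another: chi-square over its degrees of freedom was 5.29 or more for each pair within a label. The fit was tested on simulated data.

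Members, gene lists and tests were chosen with earlier results of these data known. Named genes are the members, S1pr4, Xist, Ddx3y, the 3 genes of each transport list with the smallest p, and the gene nearest to each member (mean of at least 1 CPM, unnamed models and pseudogenes left out). Alternatives were other scalings, filters and tools (DESeq2 1.42.0, limma 3.58.1), a replicate block, a covariate for Xist or Y-linked reads, and libraries left out. The CD8+ T cell tables were not used. Aqp3, Krt1, Krt5, Trp63, Hoxb13, Hoxc10, Hoxd12, Hoxd13, Wnk4, Nedd4, Slc9a4 and Prkg2 are named outside the rule, after their values were seen.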

Additional observations from a re-analysis of the deposited data

How the results depend on the processing

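Direction and side of the threshold held for the members under most of the alternatives, and the cause of each exception was not tested. DESeq2 called 18 colon genes, and 2 were called within the Xist libraries, 1 of them a member (Slc9a3, against a lone WT library), and all other settings called 0 genes. The number of members with a lower mean in KO was 7 to 9 and their median -0.37 to -0.062 over the libraries left out singly, and 9 with -0.19 without WT replicate 1 and KO replicate 3 (chosen after seeing the data). Within the Y-linked libraries the sign turned for Slc9a3 (-0.52), Scnn1b (0.15), Aqp4 (-0.093), Aqp11 (0.14), Car14 (0.17) and Car8 (-0.018), and within the Xist libraries for Car2 (0.031). Leaving out single libraries gave -0.29 to 0.52 for Slc9a3, -0.096 to 0.16 for Cftr and -0.044 to 0.48 for Aqp4. Leaving out WT replicate 1 and KO replicate 3 gave -0.35, -0.089 and -0.037, and limma-voom gave -0.14 for Cftr. Correlations of deviations were -0.039, 0.214 and -0.233 for libraries of the same replicate number and -0.257 to 0.33 for other pairs. So few libraries cannot show whether replicate numbers pair them. With the replicate block 0 genes were called, the median was -0.25 and Scnn1g stood at -2.22. With 3 libraries a label, mixed sexes and Scnn1g counts as low as 23, the precision is limited to the intervals given.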
